A study of Haliotis discus hannai with 24 samples.

Results

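The cephalic tentacles of the Pacific abalone Haliotis discus hannai were compared between the left and the right side of the head. The 8 libraries compared, of 24 in the series, were chosen by their tissue label and hold 4 libraries of the left tentacle and 4 of the right. The animals came from aquaculture, each tentacle was excised, and polyadenylated RNA was sequenced, per the labels. No treatment other than the excision and no age are named for either side, and all libraries share 1 batch value. Left and right libraries carry the same replicate numbers 1 to 4. Nothing in the sources used here says whether a number stands for an animal or a pool, so a p-value here describes only how far these libraries scatter, which may be technical.

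Cephalic tentacles are a pair of head appendages with which abalones and other gastropods touch and taste their surroundings, and they carry many ciliated sensory cells. The series asks whether sensory organs differ between sides and names cAMP-PKA-CBP and TGF-β signalling as candidate pathways. In snails, the TGF-β family ligand Nodal and its target Pitx are known to act on 1 side of the early embryo and to set the direction of body asymmetry. The files list genes by identifier without names, so neither these pathways nor markers of sensory cells, muscle or mucous cells could be read from them, and the label of the tissue could not be checked against its markers. A pair of unnamed genes with very high levels in the eyestalk gave a limited check: HDSC06460CG00010 had 2 counts in left replicate 3 and 0 in the other 7 cephalic libraries, against 1318 to 307854 in the 8 eyestalk libraries, and HDSC04127CG00020 had 0 counts in all 8 cephalic libraries.

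The libraries of both sides differed among themselves more than the sides did. The total count was 1146559, 494495, 1939936 and 1913494 in left replicates 1 to 4. In right replicates 1 to 4 it was 1872059, 1551059, 473072 and 1136338. Genes with at least 1 count numbered 5471, 3919, 11197 and 9335 on the left and 11053, 7622, 4568 and 5137 on the right. Each side thus held 2 libraries with fewer than 6000 genes, called low-detection here, and 2 with more, called full-detection. The richest low-detection library had 5471 genes and the poorest full-detection library, right replicate 2, had 7622.

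The sides did not separate on any of the 5 library measures tested. Genes detected averaged 7481 ± 3365 on the left and 7095 ± 2953 on the right (SD, n = 4 each; two-sided exact permutation p = 0.857, adjusted p = 0.914). The total count averaged 1373621 ± 692001 on the left and 1258132 ± 603839 on the right (exact permutation p = 0.686, adjusted p = 0.914). The share of counts held by the 10 most abundant genes was 25.05% ± 5.08 on the left and 25.8% ± 6.79 on the right (SD, n = 4 each; exact permutation p = 0.914, adjusted p = 0.914). A design of 4 against 4 cannot give a p below 0.0286.

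The detection classes stayed apart at equal depth. At the depth of the smallest library, 473072 counts, the expected number of genes was 4829 and 3913 in left replicates 1 and 2 and 9103 and 7379 in left replicates 3 and 4. On the right it was 8937 and 6076 in replicates 1 and 2 and 4568 and 4486 in replicates 3 and 4. All 4 low-detection libraries thus lay below all 4 full-detection libraries. Left replicate 2 also differed in the make-up of its low counts: of its detected genes 10.4% had fewer than 5 counts, against 27.8% to 37.8% in the other 7 libraries.

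**Figure D1:**
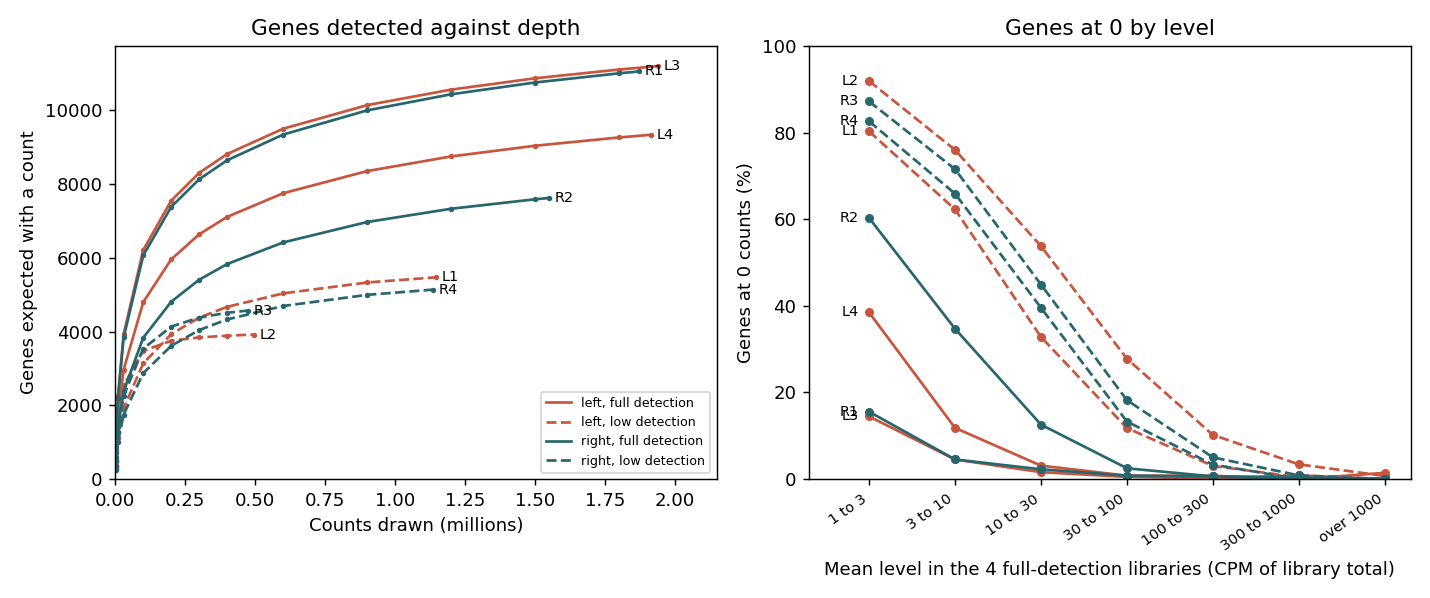
The left panel plots the number of genes expected with a count (y axis) against the number of counts drawn (x axis) for the 8 libraries, and the right panel the percent of genes at 0 counts in each library against the mean level of the genes in the full-detection libraries in CPM, counts scaled to a common library total. Low-detection curves flatten between 3919 and 5471 genes, and at 10 to 30 CPM between 32.8% and 53.8% of genes were at 0 in the low-detection libraries (dashed), against 1.60% to 12.6% in the full-detection ones (solid).

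The genes absent from low-detection libraries were not only those of low level. Of 2124 genes with a mean of 10 to 30 CPM of the library total in the full-detection libraries, 32.8% and 53.8% were at 0 in left replicates 1 and 2, and 44.9% and 39.5% were at 0 in right replicates 3 and 4. In the full-detection libraries, which set these levels and so had to hold most of the genes, it was 1.60%, 3.11% and 2.26% in left replicates 3 and 4 and right replicate 1, and 12.6% in right replicate 2. At 3 to 10 CPM right replicate 2 had 34.7% of 2565 genes at 0, against 4.52% to 11.8% in the other full-detection libraries and 62.3% to 76.0% in the low-detection ones, so it lay between them. The low-detection class was itself defined by genes at 0, and these shares are a description. Among 1400 genes at 30 to 100 CPM, 11.8% to 27.8% were at 0 in these libraries, and among 657 genes at 100 to 300 CPM it was 3.04% to 10.2%. Among 235 genes at 300 to 1000 CPM at most 3.40% were at 0 in a low-detection library, and among 139 genes at over 1000 CPM at most 0.719%.

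Of 6000 genes with a count in all 4 full-detection libraries, 2130 also had counts in all 4 low-detection libraries. A further 1145 were at 0 in 1 of these, 1150 in 2, 924 in 3 and 651 in all 4. The 651 genes held 0.502% of the counts of the full-detection libraries. Left replicate 1 lacked 1748 of the 6000 genes and right replicate 4 lacked 1969, with 1104 shared, which is 63.2% of the first list and 56.1% of the second. Left replicate 2 lacked 2756 and right replicate 3 lacked 2348, with 1663 shared, 60.3% and 70.8% of the lists. The 2 left libraries thus bracketed the 2 right ones in the number of genes they lacked.

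Each cephalic library resembled a library of the other side more than any library of its own side. Over the 3935 genes tested, the correlation of log2 CPM averaged 0.60 for the 6 pairs of left libraries, 0.63 for the 6 pairs of right libraries and 0.67 for the 16 pairs of 1 left and 1 right library. For 8 of 8 libraries the most similar other library was on the opposite side, and for 5 of 8 it was of the same detection class. Left replicate 3 and right replicate 1, both full-detection, were the most similar pair (r = 0.85). Left replicate 1 was most similar to right replicate 2 (r = 0.78) and right replicate 4 to left replicate 1 (r = 0.78). Left replicate 2 stood apart, with r between 0.51 and 0.60 to every other library. By layout each library had 2 libraries of its own detection class on the opposite side and 1 on its own side. Pairs averaged 0.75 with both full-detection, 0.60 with both low-detection and 0.62 with 1 of each. The part of this layout in the averages by side was not tested. Among the full-detection libraries the 2 pairs within a side averaged 0.74 and the 4 pairs between sides 0.76. These are correlations across genes, given as a description, and genes are not independent replicates.

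**Figure D2:**
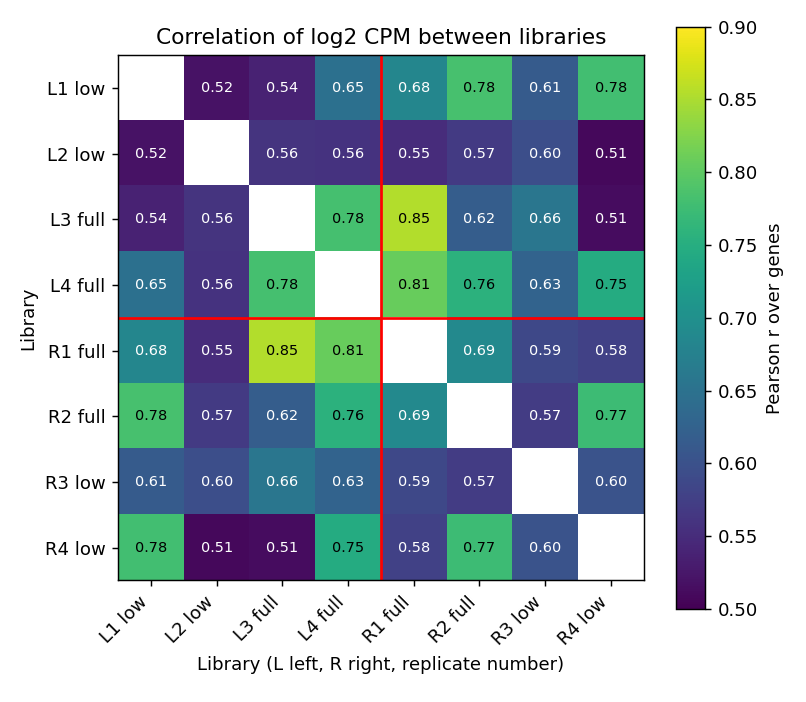
The 8 by 8 grid shows Pearson's r of log2 CPM over 3935 genes between each pair of cephalic libraries (L left, R right, with replicate number and detection class). Values between sides reach 0.85 for L3 and R1, and each library has its highest value in the other side's block.

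Spread within a side was large and of similar size on both. The common biological coefficient of variation, the relative spread between libraries beyond counting noise, was 1.01 on the left and 0.958 on the right (4 libraries each). The median SD of log2 CPM was 1.42 on the left and 1.35 on the right, while the median absolute difference between the side means was 0.53. Within detection classes the coefficient was 0.720 in the 4 full-detection libraries and 1.16 in the 4 low-detection libraries, with side means fitted. The left pair of full-detection libraries gave 0.606 and the right pair 0.823, so without the low-detection libraries the left spread fell by more than the right.

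No gene passed the test between left and right. edgeR's quasi-likelihood test, fitted on the 8 libraries, called 0 of 3935 genes (0%) at an adjusted p under 0.05, and the smallest adjusted p was 1.00. At an unadjusted p under 0.05 it had 11 genes (0.28%), where 197 would be due by chance. At the same unadjusted limit DESeq2 had 26 genes, limma with voom weights 12 and limma with weights for library quality 171, and each of the 3 called 0. In edgeR the 11 rose to 87 of 3860 without right replicate 1 and to 59 of 4969 without left replicate 1, with 0 called in both. Without the 4 low-detection libraries edgeR called 0 of 6133 genes, with 126 at an unadjusted p under 0.05, and within the low-detection libraries alone it called 0 of 2737, with 46.

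The fitted side differences were modest next to their errors. The median absolute log2 fold change of left over right was 0.46 with a median SE of 1.10. A log2 fold change of at least 1 in either direction was fitted for 617 genes (15.7%) and of at least 2 for 66 genes, 34 of them higher on the left and 32 lower. The 95% interval lay within a 4-fold difference either way for 523 genes (13.3%) and within a 2-fold difference for 0 genes. Of the 1312 genes with the highest level, at a median of 101 CPM, 38.0% were bounded within 4-fold, and of the 1312 with the lowest level, at a median of 8.28 CPM, 0 were. With the revised quasi-likelihood of edgeR 4 the bounded genes numbered 18, and without the low-detection libraries 25 of 6133. For most genes the intervals therefore did not bound the side difference within 4-fold. None of the 66 genes with a fitted log2 fold change of at least 2 was called.

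In 16 genes (0.407% of those tested) the ranges of the sides did not overlap in log2 CPM, 9 higher (0.229%) and 7 lower (0.178%) on the left, out of 3935. A random order of 4 against 4 libraries would leave no overlap in a share of 0.0286 of genes, more than was found. A gene with counts in all 4 left libraries and none on the right was not found. The reverse held for 1 gene, HDSC01782CG00040, named after its values were seen, with 1, 2, 5 and 3 counts in right replicates 1 to 4, too few for the test. It had up to 10 counts in the left epipodial libraries. Genes with counts on a single side were frequent but nearly empty: 1817 genes were seen on the left only and 1517 on the right only, with a median summed count of 2 in both sets. Of these, 1517 and 1356 had counts in a single library.

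Levels of the 4 genes with the smallest p among those without overlap are given as values, since none was called. HDSC02178CG00060 was at 40.8, 80.5, 47.9 and 42.0 CPM in left replicates 1 to 4 and at 12.2, 11.3, 0 and 7.05 CPM in right replicates 1 to 4. Here CPM is scaled to the total of the tested genes times its TMM factor, which adjusts for composition. All 4 left libraries lay above all 4 right ones, and the 2 low-detection libraries of the right were the lowest. The sides also stayed apart on the FPKM scale, set by library totals without TMM factors. There the left was at 27.8 to 129 and the right at 0 to 22.5. Its log2 fold change was 2.70 (SE 0.99, edgeR adjusted p = 1.00, unadjusted p = 0.0189), with 1.93 in the full-detection libraries and 4.13 in the low-detection ones.

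HDSC00639CG00040 was at 32.1, 87.7, 32.2 and 24.6 CPM on the left and 22.0, 2.42, 14.9 and 3.53 CPM on the right. The sides nearly met: left replicate 4 and right replicate 1 lay closer to each other than to any library of their own side. Its log2 fold change was 2.01 (SE 1.00, edgeR adjusted p = 1.00) and 1.44 without left replicate 2. On the FPKM scale the sides overlapped, with left replicates 1 and 4 at 26.3 and 38.7 and right replicate 1 at 49.1.

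HDSC01077CG00120 was lower on the left, at 106, 69.0, 82.8 and 84.9 CPM, than on the right, at 162, 296, 186 and 145 CPM. Its left libraries kept within a narrow range for these data, and the classes of detection were mixed on both sides. Its log2 fold change was -1.20 (SE 0.66, edgeR adjusted p = 1.00). On the FPKM scale its sides overlapped: right replicate 4, at 37.9, lay within the left range of 33.5 to 66.9. HDSC00021CG00100 was at 16.04, 0, 9.72 and 10.95 CPM on the left and 31.2, 49.2, 17.4 and 17.6 CPM on the right. The gap between left replicate 1 and right replicate 3 was small, and its log2 fold change was -1.65 (SE 1.11, edgeR adjusted p = 1.00). On the FPKM scale its sides overlapped as well, with right replicates 3 and 4 at 60.9 and 36.2 and left replicate 3 at 61.5.

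**Figure D3:**
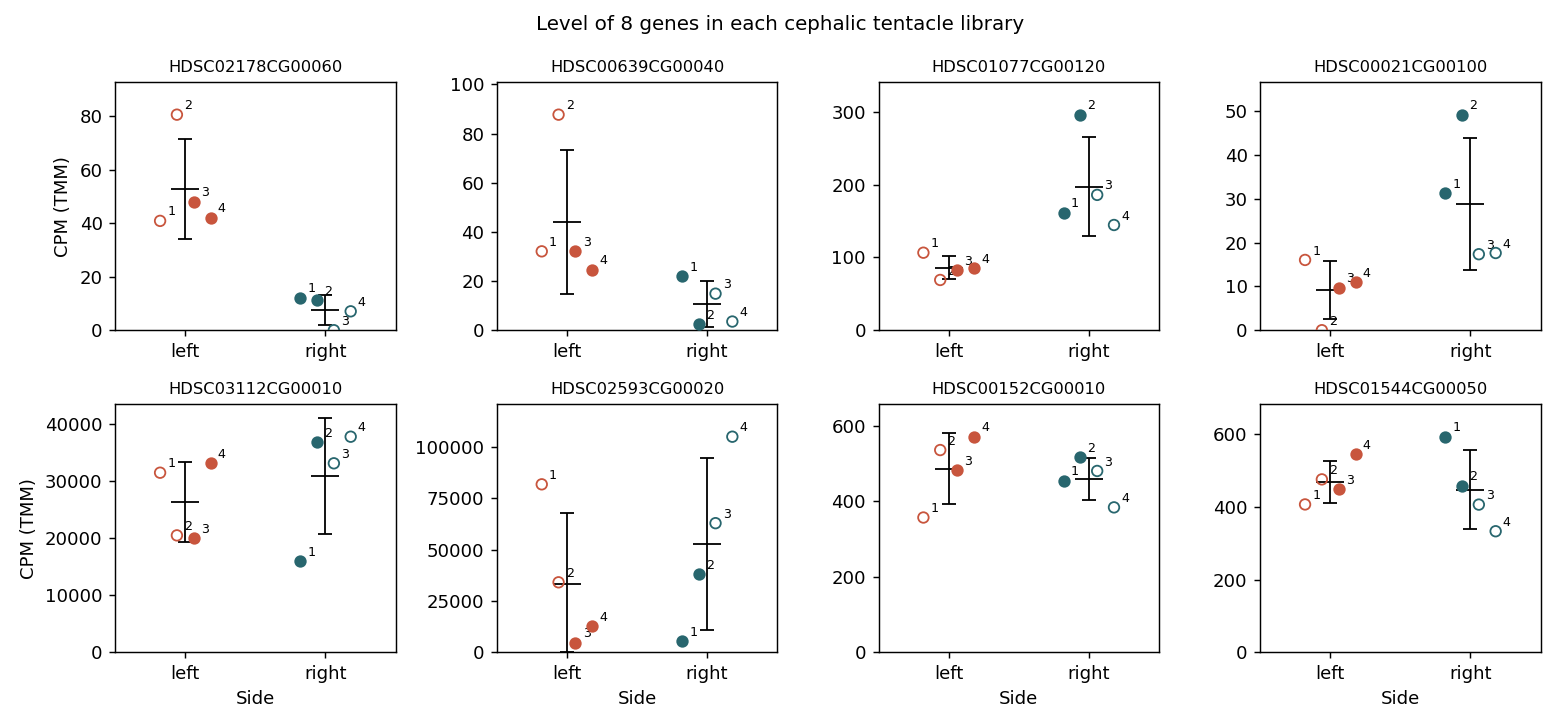
Level in CPM (y axis, from 0) of 8 genes in the 4 left and the 4 right libraries, with replicate numbers, open circles for low-detection libraries, and the mean with SD as bars (the lower arm ends at 0 where it would pass it). In the upper row the sides do not overlap on this TMM-scaled level. They do in the lower row, which shows the 2 most abundant genes and the 2 with the narrowest intervals.

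For the same genes, fitted side differences in the epipodial tentacle and the eyestalk are given as values, untested against these. In the epipodial tentacle, fitted on its own 8 libraries, the log2 fold changes of left over right were -0.11 (SE 0.42) for HDSC02178CG00060, -0.23 (SE 0.45) for HDSC00639CG00040, -0.0046 (SE 0.26) for HDSC01077CG00120 and 0.24 (SE 0.31) for HDSC00021CG00100. The title prefixes of the epipodial sides are the reverse of those in the other organs, which could turn these signs. In the eyestalk they were 0.26 (SE 1.54), -0.62 (SE 1.14), 0.21 (SE 0.75) and -1.14 (SE 1.42) in the same order. None was called by edgeR in either organ. Over all genes tested in both, the side differences of the cephalic tentacle correlated with those of the eyestalk at r = -0.15 (3519 genes) and with those of the epipodial tentacle at r = -0.21 (3839 genes), or 0.21 with the epipodial side labels exchanged. These fits share no library, and the values are descriptions across genes.

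The most abundant genes of the tentacle overlapped between sides. HDSC03112CG00010 was at 31425, 20454, 19992 and 33094 CPM on the left and 15949, 36722, 33069 and 37726 CPM on the right, a log2 fold change of -0.23 (SE 0.68), which became 0.19 with library totals alone. HDSC02593CG00020 was at 81817, 34074, 4638 and 12632 CPM on the left and 5387, 38089, 62891 and 105023 CPM on the right, a log2 fold change of -0.67 (SE 0.96). On each side its 2 lowest libraries were full-detection. Per length, HDSC02593CG00020 reached 197208 to 220710 FPKM in the low-detection libraries and 29344 to 125248 FPKM in the full-detection ones, while HDSC03112CG00010 was at 13646 to 27526 FPKM in all 8.

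The narrowest intervals belonged to HDSC00152CG00010 and HDSC01544CG00050. The first was at 357, 536, 483 and 572 CPM on the left and 455, 517, 481 and 384 CPM on the right, with a log2 fold change of 0.09 and a 95% interval of -1.19 to 1.37. The second averaged 469 ± 58.1 CPM on the left and 448 ± 110 CPM on the right (SD, n = 4 each), with a log2 fold change of 0.07 and an interval of -1.22 to 1.35. Both intervals reach beyond a 2-fold difference in either direction.

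More genes parted by detection class than by side. With no test, since the classes were made from the same counts, 34 genes (0.864%) lay wholly above and 339 genes (8.61%) wholly below the full-detection libraries in the low-detection ones, out of 3935. HDSC07223CG00010, with the furthest rise in mean log2 CPM, was at 2249, 788, 10111 and 3779 CPM in left replicates 1 and 2 and right replicates 3 and 4, and at 152 to 360 CPM in the full-detection libraries. It was also the most abundant gene in left eyestalk replicate 3, which had 4360 genes. It had at least 4439 counts in every epipodial library, all of them full-detection, and at least 6196 in every eyestalk library. HDSC02371CG00010, with the furthest fall, had 0 counts in all 4 low-detection libraries and 268, 184, 562 and 25 counts in left replicates 3 and 4 and right replicates 1 and 2. With the floor set at 3 counts for the whole group, it was at least 155-fold lower in the low-detection libraries. Leaving out right replicate 1, the bound was 95.6-fold. In every eyestalk library, of either detection class, the gene had at least 25 counts. The 10 most abundant genes held 25.3% to 33.2% of counts in the low-detection libraries and 17.4% to 23.8% in the full-detection ones, and the part of this in the differences was not tested.

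Side differences in the full-detection libraries had a weak negative correlation with those in the low-detection ones. The full-detection contrast was left replicates 3 and 4 against right replicates 1 and 2. The low-detection contrast was left replicates 1 and 2 against right replicates 3 and 4. A gene that differs between these numbers enters with opposite signs, so the correlation cannot show whether side differences were shared. The classes share no library. Over 3935 genes the 2 sets of log2 fold changes had a Pearson correlation of -0.25 and the same sign in 46.5% of genes. Over 1085 genes with at least 10 counts in all 8 libraries the correlation was also -0.25 and the sign was shared in 48.9%. The median absolute log2 fold change was 0.63 in the full-detection and 0.85 in the low-detection libraries.

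**Figure D4:**
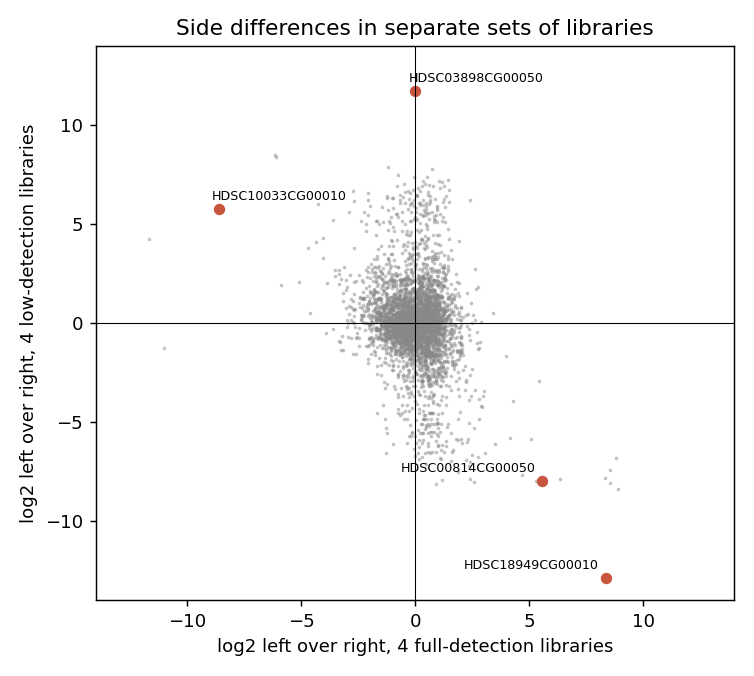
Each point is 1 of 3935 genes, with its log2 fold change of left over right in the 4 full-detection libraries (x axis) and in the 4 low-detection libraries (y axis). The cloud shows no rising trend (r = -0.25), and the 4 marked genes, called in a test that used the detection class, lie near the y axis or in quadrants of opposite sign. Genes that differ between replicate numbers 1 and 2 and numbers 3 and 4 take opposite signs on the axes by layout.

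A change of the side difference between detection classes could not be told apart from a difference between groups of replicate numbers. Low-detection libraries were replicates 1 and 2 on the left and replicates 3 and 4 on the right, so each of the 4 numbers paired 1 low-detection with 1 full-detection library. A side difference that changes between detection classes is thus also a difference between numbers 1 and 2 and numbers 3 and 4. Tested in edgeR, this interaction called 2 of 3935 genes (0.0508%), with 175 (4.45%) at an unadjusted p under 0.05. Without left replicate 1 or left replicate 2 it called 0 genes, without left replicates 3 or 4 it called 9 and 5, without right replicates 2 or 3 it called 1 each, and without right replicate 4 it called 4. With no filter on low counts it called 29 of 14083.

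Both interaction genes followed the replicate number on both sides. HDSC18949CG00010 had 0 counts in left replicates 1 and 2 and 650 and 1849 in left replicates 3 and 4. On the right it had 8 and 0 counts in replicates 1 and 2 and 252 and 1554 in replicates 3 and 4 (edgeR adjusted p = 0.0037). Numbers 3 and 4 were high and numbers 1 and 2 at or near 0, whichever side or detection class. HDSC10033CG00010 showed the opposite order, at 3225 and 4390 CPM in left replicates 1 and 2 and 184 and 8420 CPM in right replicates 1 and 2, against 9.05 to 88.1 CPM in replicates 3 and 4 of both sides (edgeR adjusted p = 0.0217).

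The same order by number was present outside the head tentacle. In the 16 eyestalk and epipodial libraries HDSC18949CG00010 had 0 to 3 counts in numbers 1 and 2 and 1049 to 1827 counts in numbers 3 and 4. HDSC10033CG00010 had 561 to 15799 counts in numbers 1 and 2 and 19 to 77 in numbers 3 and 4 of those libraries. These genes were named after their values were seen, and their values are given as a description.

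Fitted within the 4 low-detection libraries over the 3935 genes, edgeR called 3 genes between sides (0.0762%), and within the 4 full-detection libraries it called 0 (0%), with 71 and 76 at an unadjusted p under 0.05. With the genes filtered anew in the low-detection libraries it called 0. HDSC18949CG00010 was 1 of the 3. HDSC00814CG00050 had 7639 counts in right replicate 4 and 3357 in left replicate 4, against 5 to 30 counts in the other 6 cephalic libraries, so that it was high in number 4 on both sides. In the other organs it was at 2024 to 3695 counts in number 4 and at 4 to 69 in numbers 1 to 3. HDSC03898CG00050 had 910, 64 and 822 counts in left replicates 1 to 3 and 0 in left replicate 4. On the right it had 320 and 208 counts in replicates 1 and 2 and 0 in replicates 3 and 4. It was at 0 to 6 counts in all 16 libraries of the other organs, and in number 3 the sides of the cephalic tentacle went apart.

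**Figure D5:**
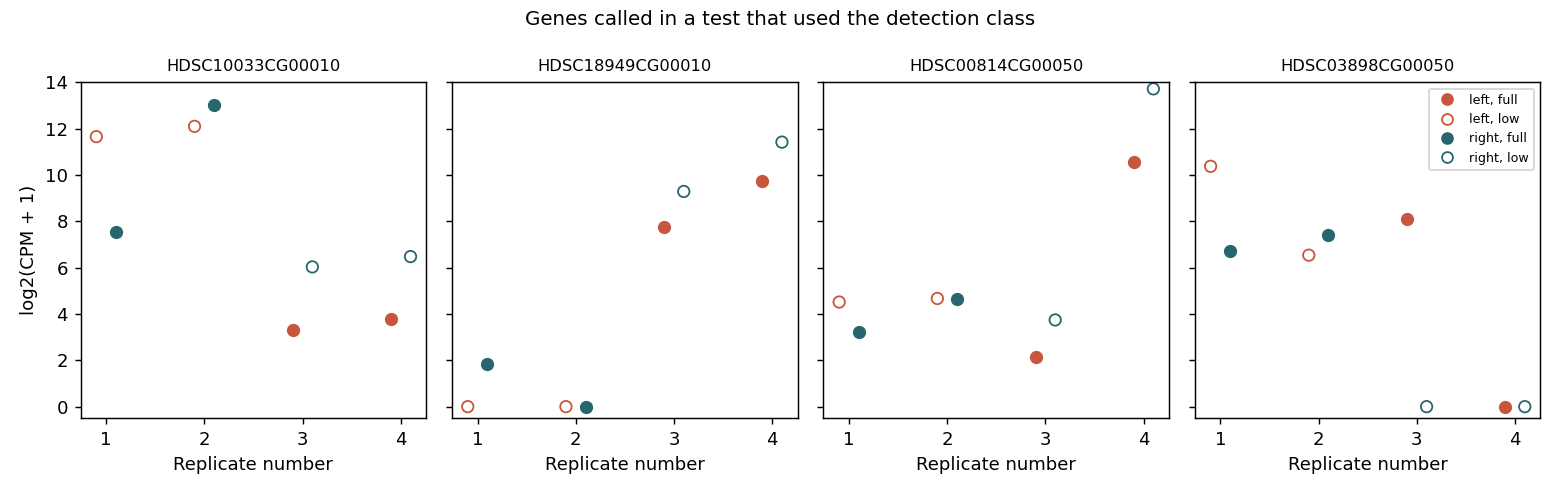
Level as log2(CPM + 1) (y axis) of 4 genes by replicate number (x axis), left and right libraries side by side, open circles for low-detection libraries. For HDSC18949CG00010, HDSC10033CG00010 and HDSC00814CG00050 the numbers that are high on the left are also high on the right, and for HDSC03898CG00050 the sides part at number 3.

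Without a filter on low counts edgeR called 1 gene between left and right, HDSC01355CG00060 (adjusted p = 0.0269), named after its values were seen. It had 0, 0, 0 and 2 counts in left replicates 1 to 4 and 0, 300, 10 and 4 counts in right replicates 1 to 4. The sides overlapped at 0, and 1 library, right replicate 2, held 300 of the 314 counts on the right. The pooled ratio of right over left was 171 with a 95% counting interval of 47.1 to 1422, and 11.05 with an interval of 2.54 to 100.2 without right replicate 2. Both intervals cover counting error only.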

How the data were processed

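The authors deposited 1 table of whole-number read counts per gene, raw and without normalization, and 1 table of FPKM values; fastp, HISAT2 and HTSeq are named in the submitters' processing notes, while build, annotation and strandedness were not given in the sources used here, so overlapping genes and near-identical copies are uncertain. The deposited FPKM values implied 1 length per gene within a relative deviation of 1.05e-08. No pair of the 8 libraries was a repeat deposit of 1 library (chi-square per gene at least 26.6).

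Counts of the 8 cephalic libraries were filtered with filterByExpr, which left 3935 of 14083 genes with a count (19700 listed), scaled with TMM factors (0.505 to 1.70) and tested with edgeR 4.0.16 in R 4.3.3 (robust quasi-likelihood, 2 side means, 6 residual degrees of freedom), with Benjamini-Hochberg adjustment at 0.05. Log2 CPM used a prior count of 2. DESeq2 1.42.0 and limma 3.58.1 were alternatives. Detection class means at least 6000 genes with a count or fewer. Expected genes at equal depth are hypergeometric expectations. Reads carry no molecular identifiers, so the intervals and floors given reflect counting error alone.

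Genes named were the 2 per direction with the smallest p among those without overlap, the 2 most abundant, the 2 with the narrowest interval and those furthest apart between detection classes. Libraries and rules were chosen with earlier results of these data known. Gene lists could not be matched, since 0 identifiers are paired with names.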

Additional observations from a re-analysis of the deposited data

Results flagged for a closer look

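Within a side, 2 of 34 sets of 4 values held a library far from the other 3. Chance gives about 1 in 20 for random normal values. That rate does not hold here, since the named genes were picked from the same data. HDSC00639CG00040 was at 87.7 CPM in left replicate 2 against 24.6 to 32.2 CPM in the other left libraries. HDSC02371CG00010 was at 185 CPM in right replicate 1 against 0 to 20.2 CPM in the other right libraries.

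The interaction test of side and detection class called 2 genes, and both followed the replicate number on both sides. For HDSC10033CG00010 the log2 fold change of left over right was 14.25 higher in the low-detection than in the full-detection libraries (edgeR adjusted p = 0.0217). For HDSC18949CG00010 it was -22.65 on the same scale (edgeR adjusted p = 0.0037). This fitted value depends on the prior count, because left replicates 1 and 2, the low-detection libraries of that side, had 0 counts. In these 8 libraries the change between classes is also a change between replicate numbers 1 and 2 and numbers 3 and 4, so these cannot be told apart here. In the epipodial tentacle, where every library was full-detection, both genes kept the same order by number, which was not tested.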

How the results depend on the processing

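Between left and right the alternative runs called 0 genes, with 2 exceptions. The absence of a filter on low counts gave 1, and the low-detection libraries alone gave 3 over the 3935 genes of the main filter. Genes at an unadjusted p under 0.05 (11 of 3935) numbered 26 in DESeq2, 171 with library quality weights, 7 on log2(FPKM + 0.1) and 25 with the revised quasi-likelihood. Over other numbers of genes tested they were 751 of 14083 with no filter and 100 of 7341 with all 24 libraries. They were 126 of 6133 without and 46 of 2737 with only the low-detection libraries. Leaving out 1 library they were 8 of 4994 to 87 of 3860. By chance a share of 0.05 would be due. The median absolute log2 fold change (0.46) was 0.99 with no filter, 0.73 with quality weights, 0.72 on log2(FPKM + 0.1), 0.67 without and 0.64 with only the low-detection libraries, 0.60 with 24 libraries and 0.43 to 0.71 leaving out 1. Genes bounded within 4-fold (523 of 3935) numbered 807 with quality weights and 18 with the revised quasi-likelihood. They were 317 of 14083 with no filter and 988 of 7341 with 24 libraries. Without the low-detection libraries they were 25 of 6133, with only these 0 of 2737, and leaving out 1 library 182 of 4150 to 478 of 4810. Genes without overlap (16 of 3935) numbered 6 with library totals alone, 7 on either FPKM scale and 27 of 14083 with no filter. In the full- and low-detection libraries alone they were 1488 of 6133 and 534 of 2737, where fewer libraries make separation by chance more frequent. Leaving out 1 library they were 27 of 3836 to 162 of 4969. With library totals in place of TMM, the median of the log2 fold changes moved from -0.03 to 0.23.

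The numbers did not meet the bound set for pairing, a correlation over 0.1 in every number: across the 3935 genes deviations from the side means correlated at -0.32, -0.03, 0.14 and 0.15 in numbers 1 to 4 (exact permutation p = 0.542), and 1 of 4 left libraries matched its own number best. The difference of replicates 3 and 4 nevertheless correlated between sides at 0.46, that of replicates 1 and 2 at -0.16, and single genes followed the number on both sides, so a shared source of same-numbered libraries was not settled. Each number paired 1 low-detection with 1 full-detection library, while the permuted pairings also matched libraries of the same class. The bound and its permutation p could therefore not decide on pairing. The replicate block gave 0 calls, 5 genes at an unadjusted p under 0.05, a median absolute log2 fold change of 0.59 and 85 bounded genes. With the block and detection class together, chosen after the data were seen like the revised quasi-likelihood, it called 0, with 0.60 and 97.

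The interaction of side and detection class called 29 of 14083 genes with no filter, with 489 at an unadjusted p under 0.05. Leaving out 1 library, over 3836 to 4994 genes, it called 0 to 9, with 119 to 506. The coefficient of variation was 0.606 on the left and 0.823 on the right without the low-detection libraries, and 0.870 to 1.16 and 0.906 to 1.03 leaving out 1. Signs turned for HDSC03112CG00010 (0.19 with library totals, 0.16 on both FPKM scales), for HDSC02371CG00010 (2.04 with quality weights, 0.36 on both FPKM scales, 0.34 with the replicate block, -0.89 to 2.59 leaving out 1), for HDSC01544CG00050 (-0.14 without the low-detection libraries, -0.031 to 0.29 leaving out 1) and for HDSC07223CG00010 (0.19 without the low-detection libraries). The causes of these moves were not tested.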
